A study of Homo sapiens with 36 samples.

Results

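Transcripts of 10 enzymes that make serine, one-carbon units and proline were measured in HEK293T cells, a human embryonic kidney line, under 2 oxidizing treatments. The enzymes were PHGDH, PSAT1 and PSPH of the serine pathway, SHMT1, SHMT2, MTHFD2, MTHFD1L and ALDH1L2 of folate one-carbon metabolism, and ALDH18A1 and PYCR1 of the proline pathway. They were taken as the rows of the count table whose Ensembl identifier maps to these symbols, which gave 10 of 61587 genes. The mapping uses no measured value, but the symbols were chosen with earlier results of these data known. Their shares and medians are thus not those of a set chosen blind to the data. All 10 passed the filter on low counts, as did 22486 genes in all.

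Serine is made from the glycolytic intermediate 3-phosphoglycerate by PHGDH, PSAT1 and PSPH in turn, and serine hydroxymethyltransferases split it into glycine and a one-carbon unit carried by folate. The mitochondrial branch (SHMT2, MTHFD2, MTHFD1L) passes that unit on as formate for nucleotide synthesis or, through ALDH1L2, oxidizes it with production of NADPH, whereas SHMT1 carries out the first reaction in the cytosol. ALDH18A1 turns glutamate into a semialdehyde that cyclizes, and PYCR1 reduces the product to proline in mitochondria; several of these genes are textbook targets of ATF4, the transcription factor of the integrated stress response.

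The study sequenced messenger RNA from 36 libraries in 12 groups of 3 replicates, to ask how the thioredoxin-like proteasome-binding protein TXNL1 and its variants bear on the response to oxidants. All cells derived from a TXNL1 knockout (KO) made with CRISPR in HEK293T cells and expanded as isogenic clones from single sorted cells, and whether the 4 lines came from 1 clone is not given. They are labelled as carrying vector, wild-type TXNL1 (WT), TXNL1 with D162R R234D, which is deficient in binding to proteasomes (labelled DR-RD), or the thioredoxin-domain mutant SxxS, and TXNL1 was introduced by lentivirus under the CMV promoter. Each of the 4 lines was left untreated (labelled DMSO), or was exposed for 6 h to arsenite (100 µM) or to hydrogen peroxide (H2O2, 600 µM), doses and time being those of the study's methods since the labels give none. The methods describe treatment in triplicate in multi-well plates, and neither they nor the labels say that replicates were independent cultures of different days, so p-values measure the spread between these libraries, which may be technical. In bulk RNA, a lower share of a transcript, fewer cells that express it and less of it per cell cannot be told apart.

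The libraries held 42072410 to 174119002 counts (median 66016833). TXNL1, the targeted gene, was at 28.6 to 31.7 CPM (counts scaled by library size) in the 3 untreated vector libraries and at 51.7 to 66.2 CPM in the 9 untreated libraries of the complemented lines, with no overlap. Its transcript was thus present in the KO line, and this count cannot separate the endogenous from the introduced transcript. Of the 4 HEK293T markers, VIM was abundant (445 to 669 CPM), while PAX2, LHX1 and NEFM were at or under 2.42 CPM in all libraries and NEFM was at 0 in 2. Markers of blood cells, hepatocytes, fibroblasts and endothelium (6 genes) summed to between 0.0329 and 3.16 CPM untreated, 0.124 and 3.11 CPM with arsenite and 0.0404 and 6.46 CPM with H2O2. Of the blood cell markers, PTPRC and CD3E were at 0 in 29 and 33 of the 36 libraries, and LYZ in 12, reaching 1.02 CPM. ALB (hepatocytes) was at 0 in 13 libraries, PECAM1 (endothelium) in 16 and COL1A2 (fibroblasts) in 3. COL1A2 had a median of 0.722 CPM and reached 4.84 CPM. Replicate 1 of WT with arsenite and replicate 2 of WT with H2O2 stood apart: their deviation from the median of their group had an SD of 0.546 and 0.624 on the log2 scale over 15674 genes, against 0.0821 to 0.193 in the other 34 libraries. The members' tests that rest on them are given with and without them, whereas correlations over group means and the values of ATF4 and of the other gene lists include them.

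In untreated cells the members differed widely in level. On a per-length scale (CPM per kilobase of the gene length given in the table), PSAT1 was highest at 126.4 ± 5.72 (SD, n = 12 untreated libraries of the 4 lines), followed by ALDH18A1 at 85.3 ± 3.91, SHMT2 at 58.0 ± 3.71, PHGDH at 51.1 ± 3.95 and PYCR1 at 41.7 ± 3.67. MTHFD1L (33.5 ± 1.28), MTHFD2 (27.8 ± 0.914), PSPH (13.5 ± 0.628) and SHMT1 (11.6 ± 0.358) were lower, and ALDH1L2 was lowest at 3.29 ± 0.324 CPM per kilobase. The ranges of SHMT2 and PHGDH overlapped, as did those of PHGDH and PYCR1, and the other neighbours in this order did not overlap. The lengths are those of all annotated exons merged, up to 11443 bases for MTHFD2 and 9187 bases for PHGDH, so a gene with long, rarely used exons is placed lower by this scale. Each member had at least 1015 counts in every library (ALDH1L2, the sparsest) and PHGDH reached 125481 counts. On this scale PSAT1 stood above PHGDH, but in counts not divided by length the order turned, with 0.528 to 0.653 times as many counts for PSAT1 as for PHGDH in the untreated libraries (median 0.590).

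Most members rose with arsenite, as described below, and sequence upstream of some of their starts is shown first. RefSeq promoters (GRCh38.p14, 250 bases before to 50 bases after a start) were at hand for 6 of the 10 members, PHGDH, PSAT1, SHMT1, MTHFD2, MTHFD1L (4 starts) and ALDH18A1, 9 promoters in all. Both strands were searched for the C/EBP-ATF response element core TTGCATCA, the antioxidant response element core in the forms TGACNNNGC and TGAGNNNGC (N is any base), and the E-box CACGTG. The 250 bases upstream of PSAT1, of one MTHFD1L start and of ALDH18A1 are printed because, with arsenite, the first 2 genes rose with the lowest p-values of the members and ALDH18A1 fell, and the 2 short windows hold a further upstream match each. Capitals mark a match.
PSAT1 (chr9:78296875-78297124, plus strand): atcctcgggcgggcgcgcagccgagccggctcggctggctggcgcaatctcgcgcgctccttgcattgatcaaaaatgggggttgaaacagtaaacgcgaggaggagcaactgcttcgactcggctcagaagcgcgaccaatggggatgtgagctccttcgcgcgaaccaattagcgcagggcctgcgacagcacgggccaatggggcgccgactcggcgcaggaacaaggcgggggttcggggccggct
MTHFD1L (chr6:150866083-150866332, plus strand): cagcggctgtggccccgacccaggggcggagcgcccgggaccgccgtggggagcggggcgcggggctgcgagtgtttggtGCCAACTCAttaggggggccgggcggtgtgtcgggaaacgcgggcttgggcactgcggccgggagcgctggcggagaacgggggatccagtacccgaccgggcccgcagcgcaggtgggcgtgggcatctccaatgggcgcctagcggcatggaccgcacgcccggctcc
ALDH18A1 (chr10:95656712-95656961, minus strand): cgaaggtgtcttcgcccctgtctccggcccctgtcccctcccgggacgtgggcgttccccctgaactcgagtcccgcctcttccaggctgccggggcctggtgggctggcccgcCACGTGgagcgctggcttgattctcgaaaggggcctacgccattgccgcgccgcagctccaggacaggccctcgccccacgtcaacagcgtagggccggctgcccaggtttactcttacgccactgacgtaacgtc
PHGDH (chr1:119711797-119711825, plus strand): cagggatttgGCAACCTCAgagccgcgag
MTHFD1L (chr6:150866346-150866375, plus strand): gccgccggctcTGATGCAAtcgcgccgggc

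The core TTGCATCA was found, on the reverse strand, in MTHFD1L alone among the 6 members, 129 bases upstream of its first listed start, and in 0.866% of 35116 promoters of the same length. The same match lay 90 bases upstream of the third listed start. It lay 25 bases downstream of the second, the start whose 250 upstream bases are printed. TGAGNNNGC matched in PHGDH (127 bases upstream), in MTHFD1L (170 bases upstream of its second listed start) and in ALDH18A1 (35 bases downstream of the start), and in 18.3% of all promoters. TGACNNNGC matched in MTHFD2, 7 bases downstream of the start, and in 13.3% of all promoters. CACGTG lay 136 bases upstream of ALDH18A1, the member that fell in every line, and 154 bases upstream of the first listed MTHFD1L start, and was found in 7.26% of all promoters. This MTHFD1L match began 1 base upstream of the second listed start, so it runs past the end of the printed sequence and is not marked there. No match was found in the windows of PSAT1 and SHMT1, which says only that these letters are absent there. A match is a description of the sequence and not a site of binding.

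Most of the 10 transcripts were higher after arsenite. Averaged over the 4 lines, 8 of the 10 members were higher and 2 were lower after arsenite (edgeR's quasi-likelihood test, Benjamini-Hochberg adjusted p under 0.05 over all genes, called edgeR adjusted p below), against 37.4% of all tested genes that were higher and 31.5% that were lower. The median log2 fold change was 0.41 over the members and 0.06 over all genes tested. The changes were moderate, from −0.27 for ALDH1L2 to 0.58 for SHMT2, and the member that rose most lay above 82.7% of all genes. All 3 arsenite libraries lay above all 3 untreated libraries in each of the 4 lines for 6 members (PHGDH, PSAT1, PSPH, SHMT2, MTHFD1L and PYCR1) and below them in each line for 1 member (ALDH18A1), which was the case for 16.8% and 18.8% of all genes. Without the 2 outlying libraries 16563 of the 22486 genes were called, against 15477 with them, and 9 members were, all but SHMT1, with log2 fold changes of 0.41 for PSPH, 0.54 for SHMT2, 0.32 for MTHFD2, 0.47 for MTHFD1L and −0.23 for ALDH18A1, and the other members' values stand below.

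**Figure D1:**
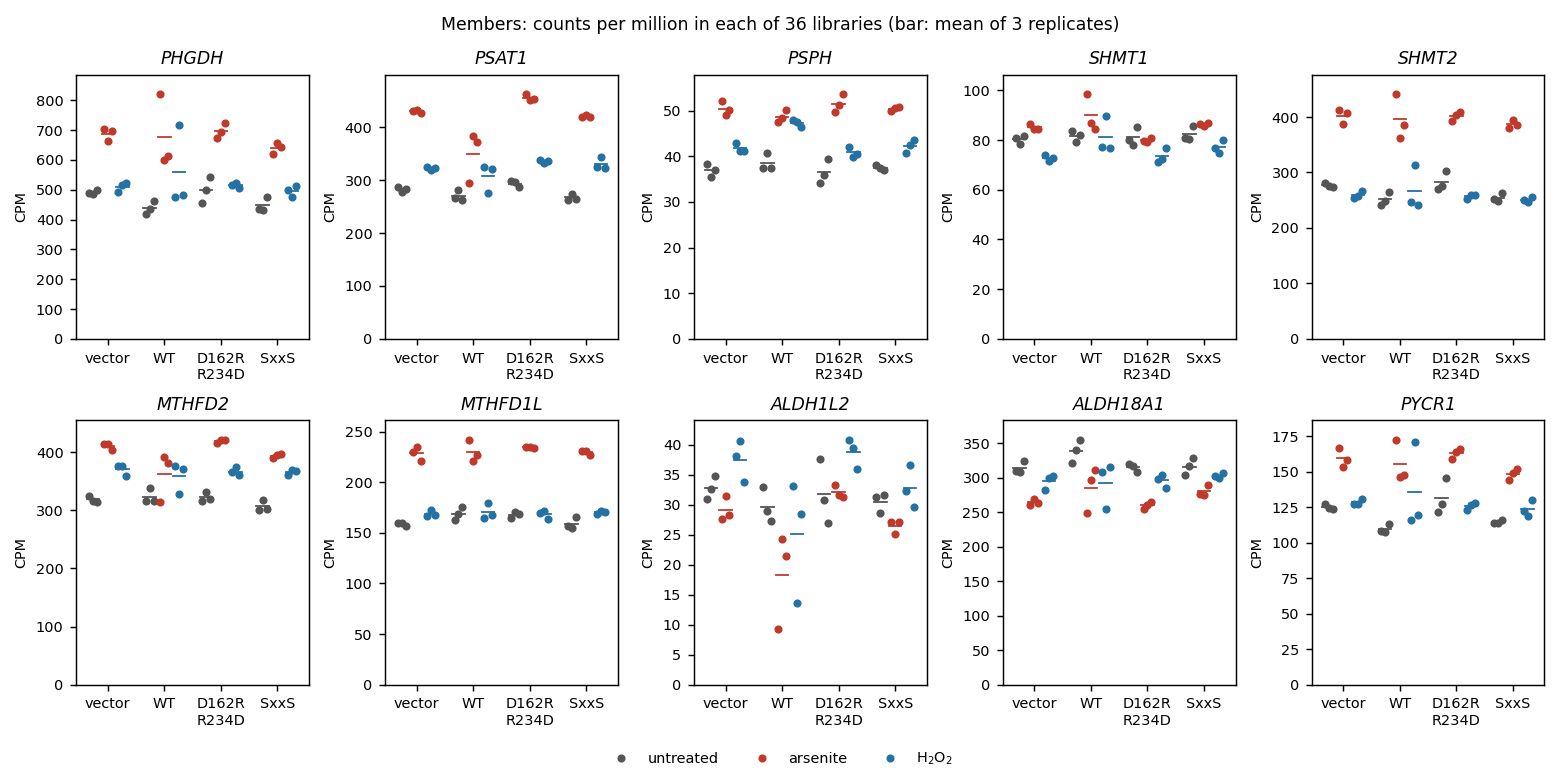
CPM (counts scaled by library size; y axis, from 0) of each member in each of the 36 libraries, by line (x axis) and treatment (colour); points are replicates and bars the mean of 3. Arsenite points sit above the untreated points in every line for PHGDH, PSAT1, PSPH, SHMT2, MTHFD1L and PYCR1 and below them for ALDH18A1, and 1 WT library with arsenite (9.32 CPM) and 1 with H2O2 (13.7 CPM) fall far below the others for ALDH1L2.

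PHGDH (ENSG00000092621, chr1:119648411-119744218; positions of members are those of GENCODE 44 on GRCh38) is the first enzyme of serine synthesis. In vector cells it was at 489, 486 and 497 CPM untreated and at 703, 663 and 697 CPM with arsenite. Over all lines the 12 untreated libraries ran from 419.6 to 544 CPM (median 469) and the 12 arsenite libraries from 599.7 to 820.3 CPM (median 669). No arsenite library overlapped an untreated one, and the highest was the outlying replicate 1 of WT, the next being at 723 CPM. On average over lines the log2 fold change was 0.53 ± 0.0540 (SE; 95% interval 0.42 to 0.64), a 1.44-fold rise with edgeR adjusted p = 7.29e-10, and 0.47 without the 2 outlying libraries.

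PSAT1 (ENSG00000135069, chr9:78297125-78330093), the aminotransferase that follows, was the member highest per length and rose 1.48-fold. It was at 288, 278 and 284 CPM in untreated vector cells and at 431, 432 and 428 CPM with arsenite. These groups were far apart, with a spread of a few CPM in the arsenite group. The D162R R234D line reached 463, 452 and 454 CPM and the SxxS line 419, 422 and 419 CPM, while WT had 295, 384 and 372 CPM. Replicate 1 of WT, here the lowest arsenite library, lay within the range of the untreated libraries of other lines (262 to 298 CPM over all lines) but above those of its own line. Averaging the lines gave a log2 fold change of 0.57 ± 0.0326 (SE; edgeR adjusted p = 1.67e-15), and also 0.57 without the 2 outlying libraries.

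PSPH (ENSG00000146733, chr7:56011051-56051604) removes the phosphate in the last step to serine. Its 12 untreated libraries ran from 34.1 to 40.8 CPM and its 12 arsenite libraries from 47.6 to 53.6 CPM, without overlap. In vector cells the untreated values were 38.2, 35.5 and 37.1 CPM and the arsenite values 52.2, 49.0 and 50.2 CPM. Its averaged log2 fold change was 0.43 ± 0.0263 (SE; edgeR adjusted p = 7.81e-15), so that all 3 enzymes of the serine pathway rose. Per line, PSPH rose by 0.34 in WT to 0.50 in D162R R234D cells on the log2 scale.

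Among the one-carbon enzymes, the mitochondrial and the cytosolic serine hydroxymethyltransferase had changes of different size, whose 95% intervals of 0.50 to 0.65 (SHMT2) and 0.01 to 0.13 (SHMT1) on the log2 scale did not meet. SHMT2 (ENSG00000182199, chr12:57229573-57234935), the mitochondrial form, went from 281, 275 and 275 CPM in untreated vector cells to 412, 388 and 407 CPM with arsenite. Its averaged log2 fold change of 0.58 ± 0.0360 (SE; 1.49-fold; edgeR adjusted p = 1.22e-14) was the highest among the members. The 12 arsenite libraries (361 to 441 CPM) lay above all 12 untreated libraries (241 to 303 CPM). SHMT1 (ENSG00000176974, chr17:18327860-18363563), the cytosolic form, went from 80.9, 78.5 and 81.6 CPM in untreated vector cells to 86.6, 84.5 and 84.4 CPM with arsenite. Its libraries did not overlap in vector and WT cells and overlapped in D162R R234D and SxxS cells. For SHMT1 the averaged log2 fold change was 0.07 ± 0.0291 (SE), with edgeR adjusted p = 0.0415. This call was lost in 21 of 33 alternative fits (adjusted p from 0.019 to 0.532), including the one without the 2 outlying libraries (log2 fold change 0.03, adjusted p = 0.17).

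The ratio of the counts of these 2 genes within a library does not depend on depth or scaling and was looked at after the values were seen, so it is given as a description. SHMT2 had 2.89 to 3.54 times the counts of SHMT1 in the 12 untreated libraries (median 3.29) and 4.16 to 5.09 times in the 12 arsenite libraries (median 4.60). With H2O2 the ratio was 3.15 to 3.66. All arsenite libraries, the outlying one included, lay above every untreated and every H2O2 library.

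MTHFD2 and MTHFD1L, which act after SHMT2 in mitochondria, both rose. MTHFD2 (ENSG00000065911, chr2:74186172-74217565), a dehydrogenase and cyclohydrolase, was at 325, 316 and 315 CPM in untreated vector cells and at 414, 414 and 405 CPM with arsenite. Its groups did not overlap in vector, D162R R234D and SxxS cells. In WT they did, through the outlying replicate 1 at 314 CPM beside 392 and 381 CPM in the other replicates. The averaged log2 fold change was 0.32 ± 0.0296 (SE; edgeR adjusted p = 9.44e-11), and in WT alone it was 0.17 with all 3 arsenite libraries and 0.23 without the outlying libraries. MTHFD1L (ENSG00000120254, chr6:150865679-151101887), the formate-releasing synthetase, had close replicates. It went from 159.7, 160.1 and 157 CPM in untreated vector cells to 229.7, 235 and 221 CPM with arsenite. The 12 untreated libraries (155 to 175 CPM) and the 12 arsenite libraries (221 to 242 CPM) were well apart, and the averaged log2 fold change was 0.49 ± 0.0223 (SE; edgeR adjusted p = 4.17e-18), the lowest p among the members.

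ALDH1L2 (ENSG00000136010, chr12:105019784-105107643), the mitochondrial enzyme that oxidizes 10-formyltetrahydrofolate to carbon dioxide, was the only one-carbon member whose averaged change was negative. It was at 31.0, 32.7 and 34.8 CPM in untreated vector cells and at 27.6, 31.5 and 28.3 CPM with arsenite, with overlap. In the D162R R234D line the arsenite values (33.3, 31.6 and 31.3 CPM) lay within the untreated ones (37.6, 30.9 and 27.0 CPM). WT with arsenite was lowest, at 9.32, 24.3 and 21.5 CPM against 32.9, 28.9 and 27.3 CPM untreated, the first being the outlying replicate. ALDH1L2 had an averaged log2 fold change of −0.27 ± 0.114 (SE; edgeR adjusted p = 0.0394), a call lost in 13 of 33 alternative fits. Without the 2 outlying libraries it was −0.21 ± 0.0495 (SE; edgeR adjusted p = 0.000476).

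The ratio of MTHFD2 to ALDH1L2, also chosen after the values were seen, was higher in every arsenite library than in any untreated one. The counts of MTHFD2 were 8.42 to 11.8 times those of ALDH1L2 in untreated libraries and 12.5 to 33.7 times with arsenite, the second highest arsenite library being at 17.7. With H2O2 they were 8.94 to 24.0 times, the second highest being at 13.0. The 2 highest values belonged to the outlying libraries.

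The 2 enzymes of proline synthesis moved in opposite directions with arsenite. ALDH18A1 (ENSG00000059573, chr10:95605941-95656711), which starts the pathway from glutamate, fell from 309, 308 and 323 CPM in untreated vector cells to 259.7, 269 and 264 CPM. The 3 arsenite libraries lay below the 3 untreated libraries in each line. ALDH18A1 had an averaged log2 fold change of −0.24 ± 0.0342 (SE; 95% interval −0.31 to −0.17), with edgeR adjusted p = 5.09e-07. PYCR1 (ENSG00000183010, chr17:81932384-81942412), which completes proline, rose from 127, 125 and 124 CPM to 167, 154 and 158 CPM in vector cells. Its averaged log2 fold change was 0.39 ± 0.0453 (SE; edgeR adjusted p = 1.14e-08), and 0.35 without the outlying libraries.

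The counts of PYCR1 were 0.316 to 0.474 times those of ALDH18A1 in the untreated libraries (median 0.378) and 0.474 to 0.695 times with arsenite (median 0.586), a description of a ratio chosen after the values were seen. Within each line all arsenite libraries lay above all untreated libraries, and over all lines the ranges met at their ends. With H2O2 the ratio had a median of 0.420 and reached 0.673 in the outlying WT library, the next being 0.453.

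**Figure D2:**
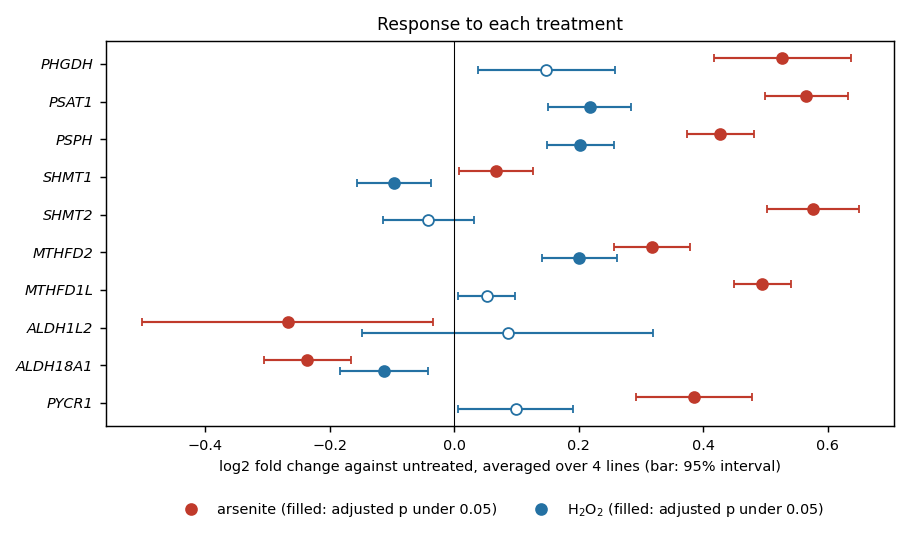
Log2 fold change of each member against untreated cells, averaged over the 4 lines, for arsenite (red) and H2O2 (blue); bars are 95% intervals from edgeR and filled points have adjusted p under 0.05. Arsenite values run from −0.27 (ALDH1L2) to 0.58 (SHMT2), and H2O2 values from −0.11 (ALDH18A1) to 0.22 (PSAT1).

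H2O2 changed fewer of these transcripts. Averaged over lines, 3 members were higher (PSAT1, PSPH and MTHFD2) and 2 were lower (SHMT1 and ALDH18A1), against 6.78% of all genes higher and 5.3% lower. The median log2 fold change was 0.09 over the members and 0.00 over all genes tested. The arsenite and H2O2 comparisons share their untreated libraries, so the values are given side by side and no likeness between them is drawn. All 3 H2O2 libraries lay above all 3 untreated libraries in each of the 4 lines for 1 member, PSPH, and below them in each line for none of the 10, against 1.15% and 1.07% of all genes.

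PSAT1 had the highest averaged log2 fold change with H2O2, close to those of PSPH and MTHFD2 given below. In vector cells PSAT1 went from 288, 278 and 284 CPM untreated to 325, 319.7 and 324 CPM. Its log2 fold change there was 0.19, below the 0.22 of MTHFD2. The groups did not overlap in vector, D162R R234D and SxxS cells. In WT the outlying replicate 2, at 276 CPM beside 324 and 322 CPM, lay among the untreated values. The averaged log2 fold change was 0.22 ± 0.0326 (SE; edgeR adjusted p = 2.09e-05).

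PSPH went to 43.0, 41.2 and 41.2 CPM with H2O2 in vector cells, and to 48.1, 47.6 and 46.5 CPM in WT. The H2O2 libraries of the other lines ran from 39.9 to 43.6 CPM, below those of WT. The difference of WT from vector was not called (log2 0.18, edgeR adjusted p = 0.117), nor was the interaction over lines (edgeR adjusted p = 0.778). How many of all genes lacked overlap in this way is not given here. PSPH had an averaged log2 fold change of 0.20 ± 0.0263 (SE; edgeR adjusted p = 2.52e-06). MTHFD2 went to 377, 376 and 359 CPM in vector cells, and its averaged log2 fold change was 0.20 ± 0.0295 (SE; edgeR adjusted p = 1.6e-05). PSAT1, PSPH and MTHFD2 kept their calls in each of 33 alternative fits of this average, and had log2 fold changes of 0.23, 0.20 and 0.21 without the outlying libraries.

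The 2 members that fell with H2O2 did so slightly. SHMT1 was at 74.1, 71.7 and 72.7 CPM in vector cells with H2O2, below the untreated values there. Its averaged log2 fold change was −0.10 ± 0.0291 (SE; edgeR adjusted p = 0.0261), lost in 5 of 33 alternative fits. ALDH18A1 was at 282, 300.0 and 302 CPM, and its averaged log2 fold change was −0.11 ± 0.0342 (SE; edgeR adjusted p = 0.027), lost in 7 of 33. Without the outlying libraries both were called, at −0.12 for SHMT1 and −0.10 for ALDH18A1.

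The other 5 members did not pass the test with H2O2. PHGDH was at 492, 517 and 522 CPM in vector cells with H2O2, with an averaged log2 fold change of 0.15 ± 0.0538 (SE; edgeR adjusted p = 0.0729). It was the nearest to the threshold, and its highest library (717 CPM) was the outlying WT replicate 2, the next being at 523 CPM. The values were −0.04 for SHMT2 (254, 258 and 266 CPM), 0.05 for MTHFD1L (167, 172 and 168 CPM) and 0.10 for PYCR1 (128, 127 and 131 CPM). ALDH1L2 had 38.1, 40.7 and 33.8 CPM in vector cells with H2O2, and its averaged value of 0.09 had a 95% interval from −0.15 to 0.32. Without the 2 outlying libraries 8 of the 10 members passed, the added ones being PHGDH (0.09), SHMT2 (−0.08) and ALDH1L2 (0.15), all on the log2 scale, while the genes called in all went from 2716 to 6430 of 22486. Leaving out replicate 3 of untreated SxxS cells alone left 3 members called.

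Set directly against each other, arsenite and H2O2 differed for all 10 members. With arsenite 8 members were higher than with H2O2, against 37.3% of all genes, and 2 were lower, against 31.3%. The difference was highest for SHMT2 (log2 0.62 ± 0.0360, SE), MTHFD1L (0.44 ± 0.0223), PHGDH (0.38 ± 0.0539) and PSAT1 (0.35 ± 0.0326), with edgeR adjusted p of 3.65e-07 or lower. It was 0.12 for MTHFD2, 0.16 for SHMT1, 0.22 for PSPH and 0.29 for PYCR1. ALDH1L2 (−0.35, edgeR adjusted p = 0.00755) and ALDH18A1 (−0.12, edgeR adjusted p = 0.00222) were lower with arsenite. All 10 were also called without the outlying libraries. SHMT2 and MTHFD1L thus rose with arsenite and did not pass the test with H2O2, where the 95% intervals of their log2 fold changes ran from −0.12 to 0.03 and from 0.01 to 0.10.

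**Figure D3:**
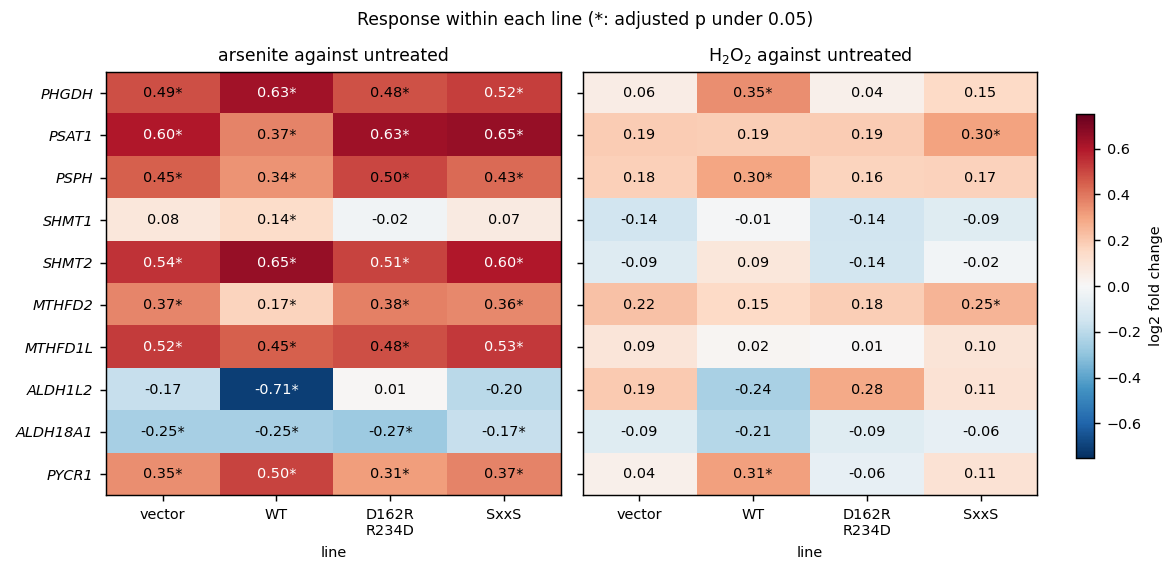
Log2 fold change against untreated cells of the same line (colour and number) for each member (rows) in each line (columns), with arsenite on the left and H2O2 on the right; an asterisk marks edgeR adjusted p under 0.05. Of the members, 7 rose with arsenite in every line (0.17 to 0.65) and ALDH18A1 fell in every line, while few H2O2 values passed.

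Within single lines 8 members had the same direction with arsenite in all 4, whereas SHMT1 (−0.02) and ALDH1L2 (0.01) had the opposite sign in D162R R234D cells from the other lines and were not called there. In vector cells 7 members were higher and 1 lower, against 22.1% and 21.4% of all genes. In D162R R234D cells 7 were higher and 1 lower, against 22.5% and 21.5%, and in SxxS cells 7 were higher and 1 lower, against 22.1% and 21.5%. In WT cells 8 were higher and 2 lower, against 28.7% and 24.9%. The members called in all 4 lines were PHGDH, PSAT1, PSPH, SHMT2, MTHFD2, MTHFD1L and PYCR1, which rose, and ALDH18A1, which fell. SHMT1 (0.14) and ALDH1L2 (−0.71) were called in WT alone. Without the outlying libraries SHMT1 was not called in WT (0.04, edgeR adjusted p = 0.44), whereas ALDH1L2 was (−0.41, edgeR adjusted p = 0.00257). Without replicate 1 of WT with arsenite alone, ALDH1L2 was not called in WT (−0.38, edgeR adjusted p = 0.12). MTHFD2 lost its call in WT in 7 of 15 alternative fits and ALDH18A1 lost its call in SxxS cells in 5 of 15. In WT the count went from 10 to 4 members when only the 2 groups compared entered the fit, and the genes called in all went from 12060 to 6416.

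H2O2 in single lines passed for few members. None was called in vector cells, against 1.35% of all genes, and none in D162R R234D cells, against 1.03%. In each, 4 members had an unadjusted p under 0.05, against 2542 (vector) and 2408 (D162R R234D) of all 22486 genes, and DESeq2 called 2 members. In WT 3 were called (PHGDH, PSPH and PYCR1), against 8.06%. Of these, PSPH (0.30) kept its call without the outlying libraries (0.29, edgeR adjusted p = 0.000363), whereas PHGDH went from 0.35 to 0.12 and PYCR1 from 0.31 to 0.10 and lost theirs. With the replicate number as a block, PHGDH was not called in WT (edgeR adjusted p = 0.0578) and ALDH18A1 was (−0.21, edgeR adjusted p = 0.0479). In SxxS cells 2 were called (PSAT1 at 0.30 and MTHFD2 at 0.25), against 1.02%. Leaving out any 1 of the untreated WT libraries left 1 member called in WT, PSPH, and leaving out any 1 of the SxxS libraries left 0 or 1 in SxxS cells. Counts in single lines under H2O2 moved between 0 and 5 under other settings, and the genes called in all under those settings are not given here.

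Few differences between the complemented lines and vector passed the test. In untreated cells none of the 10 differed between a complemented line and vector, against 0.196% of all genes in WT, 0.0267% in D162R R234D cells and 0.0178% in SxxS cells. Only 1 member (PYCR1 in WT) had an unadjusted p under 0.05, against 1574 of 22486 genes in WT, and DESeq2 called 0 members. The differences from vector lay between −0.19 and 0.11 in WT, −0.04 and 0.08 in D162R R234D and −0.13 and 0.03 in SxxS cells on the log2 scale. PYCR1 was at 108, 107 and 113 CPM in untreated WT and at 127, 125 and 124 CPM in vector cells, without overlap. The fit without the outlying libraries called PYCR1 (−0.19, edgeR adjusted p = 0.0152), PHGDH (−0.16, edgeR adjusted p = 0.044) and SHMT2 (−0.14, edgeR adjusted p = 0.0417), all lower in WT. PHGDH was at 419.6, 434 and 463 CPM in untreated WT against 489, 486 and 497 CPM in vector, and SHMT2 at 241, 249 and 264 CPM against 281, 275 and 275 CPM, again without overlap. How many of all genes lacked overlap between these groups, or were called in that fit, is not given here. These values are thus a description, and whether the difference is particular to the members was not tested.

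With arsenite, 1 member differed: PSAT1 was lower in WT than in vector (−0.30 ± 0.0651, SE; edgeR adjusted p = 0.0178), against 1.33% of all genes in that comparison. The WT values of 295, 384 and 372 CPM all lay below the vector values of 431, 432 and 428 CPM. The call for PSAT1 was lost when replicate 1 of WT was left out (−0.19, edgeR adjusted p = 0.121), and when any 1 of the 3 vector libraries with arsenite was (−0.29 to −0.30). Without the outlying libraries the difference was −0.19 (edgeR adjusted p = 0.00112), and PHGDH (−0.19, edgeR adjusted p = 0.0337) and ALDH18A1 (0.19, edgeR adjusted p = 0.00583) were then called as well. How many of all genes that fit called in this comparison is not given here. No member differed from vector with arsenite in D162R R234D (0.0222% of all genes) or SxxS cells (0.0267%), where 0 had an unadjusted p under 0.05. With H2O2 no member differed in WT (0.2% of all genes), D162R R234D (0.0178%) or SxxS cells (0.0445%). An unadjusted p under 0.05 was found for 3 members in WT, against 4566 of 22486 genes, and for 0 in the other lines. DESeq2 called 1 member over the 3 lines. Whether the response itself differed between lines was tested by an interaction over the 4 lines. It was called for none of the 10 members with arsenite, against 0% of all genes (1432 at an unadjusted p under 0.05, and 35 called by DESeq2). With H2O2 it was called for none, against 0.685% of all genes (1970 at an unadjusted p under 0.05, and 320 called by DESeq2). Without the outlying libraries no member was called either, and 46 and 340 genes were in all, with unadjusted p of 0.00318 for PSAT1 and 0.0502 for MTHFD2 with arsenite and of 0.0363 for PYCR1, 0.028 for PSAT1 and 0.0437 for MTHFD1L with H2O2. With all libraries the unadjusted p was under 0.05 for PSAT1 (0.0185) and MTHFD2 (0.0493) with arsenite and for PYCR1 (0.0463) with H2O2, and DESeq2 called none of the 10 in either interaction.

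**Figure D4:**
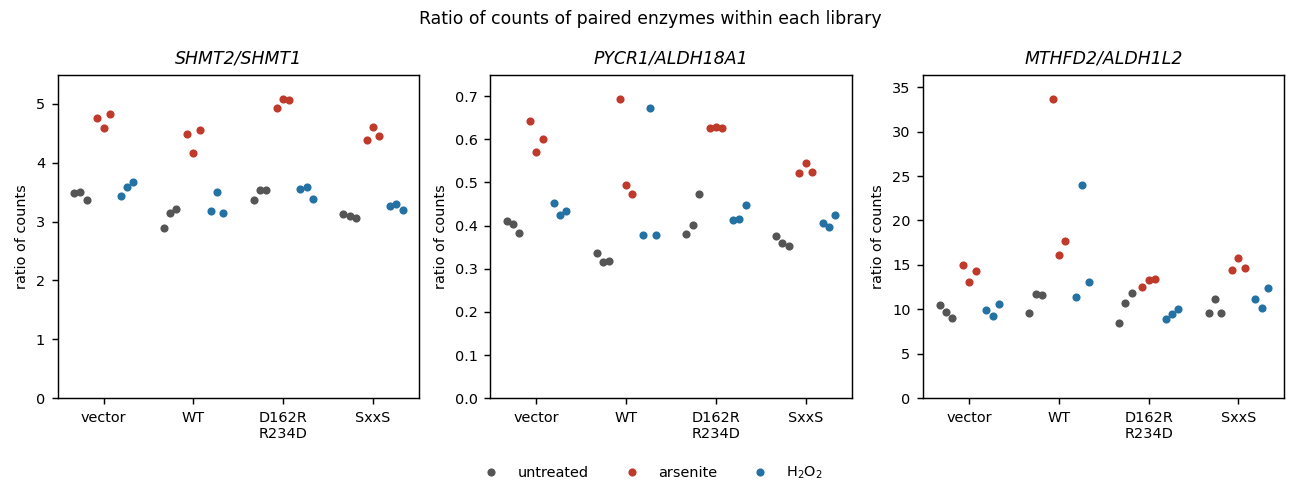
Ratio of the counts of 2 enzymes within each library (y axis, from 0) by line (x axis) and treatment (colour); points are single libraries. The SHMT2/SHMT1 ratio of every arsenite library (4.16 to 5.09) lies above every untreated library (2.89 to 3.54), and the 2 highest MTHFD2/ALDH1L2 points belong to the outlying WT libraries.

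Across the 12 group means, levels of the members that rose went up and down together, as a description over points that share libraries and treatments. Pearson's r of the mean log2 CPM was 0.99 between PHGDH and PYCR1, 0.97 between SHMT2 and MTHFD1L and 0.95 between PSAT1 and MTHFD2. The lowest r among these 7 was 0.69, between SHMT2 and MTHFD2. ALDH18A1 ran opposite, with r of −0.93 to PHGDH, PSAT1 and PYCR1. SHMT1, called higher on average and in WT but in no other line, had r from 0.03 (MTHFD2) to 0.65 (SHMT2) with the members called higher in every line. Among 10245 genes with a mean of at least 10 CPM, the 2 genes most like PSAT1 were GPAT3 (r = 0.98) and ASNS (r = 0.97), the asparagine synthetase. PHGDH was most like ADAP1 and RUSC1 (both r = 0.99), SHMT2 like CMC1 and PPOX (r = 1.00 and 0.99), MTHFD1L like RSL24D1 (r = 1.00), MTHFD2 like MLLT11 (r = 0.97) and PSPH like NFKB2 (r = 0.97). SHMT1 was most like SDHAF3 (r = 0.95), ALDH1L2 like ELOVL2 (r = 0.98) and ALDH18A1 like PARP1 (r = 0.98). The gene most like PYCR1 was PHGDH, and the third, ENSG00000263585 (r = 0.98), lies antisense to it.

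Among the other genes of folate metabolism more fell than rose. Of 25 other folate and one-carbon genes, 23 were tested. With arsenite averaged over lines 6 were higher, 12 lower and 5 not called, against 37.4% of all genes higher and 31.5% lower. The log2 fold changes had a median of −0.07. SFXN1, the mitochondrial serine transporter, fell from a mean of 251 to 127 CPM (−0.98), and SLC25A32, the mitochondrial folate carrier, fell from 51.5 to 36.7 CPM (−0.49). MTFMT, which formylates the mitochondrial initiator tRNA, fell by 1.33 on the log2 scale, and MTR (methionine synthase), SLC46A1 (folate transporter) and GCSH (glycine cleavage) fell by 0.87, 0.67 and 0.61. MTHFD1, the cytosolic counterpart of the mitochondrial MTHFD enzymes, was at 520.3 CPM untreated and 528 CPM with arsenite (0.02, edgeR adjusted p = 0.615). MTHFD2L (0.28) and SFXN3 (0.44), relatives of MTHFD2 and SFXN1, rose. With H2O2 2 of the 23 were higher and 4 lower, against 6.78% and 5.3% of all genes.

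**Figure D5:**
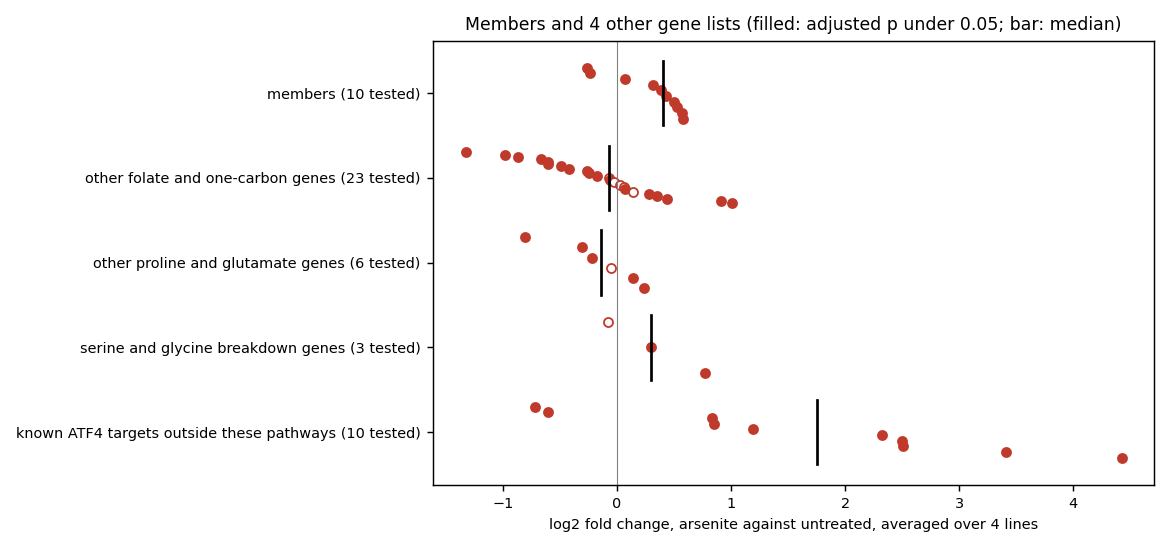
Log2 fold change with arsenite, averaged over the 4 lines (x axis), of the members and of the tested genes of 4 other lists (rows); filled points have edgeR adjusted p under 0.05 and black bars are medians. The members' median (0.41) lies above that of the other folate genes (−0.07) and of the other proline and glutamate genes (−0.14) and below that of the ATF4 targets (1.76).

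Other genes around proline and glutamate were also mixed. Of 8 listed, 6 were tested. With arsenite 2 were higher and 3 lower, against 37.4% and 31.5% of all genes, and the median of the 6 was −0.14. Among them OAT fell by 0.31 and GLUD1 by 0.22 on the log2 scale, while ALDH4A1 (0.24), which breaks down the proline intermediate, rose. With H2O2 1 of the 6, OAT, was called (−0.08), against 6.78% of all genes higher and 5.3% lower. Of 4 serine and glycine breakdown genes 3 were tested, and GCAT (0.30) and SDSL (0.77, at 0.145 and 0.250 CPM) were higher with arsenite. None of the 3 was called with H2O2.

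Known ATF4 targets outside these pathways had the highest median with arsenite among the lists. Of 11 listed, 10 were tested, and 8 were higher and 2 lower, against 37.4% and 31.5% of all genes. Their log2 fold changes had a median of 1.76. The transcription factor ATF3 (4.42), SESN2 (3.41), DDIT3 (2.51) and DDIT4 (2.50) headed them, ASNS rose by 0.85, and CEBPB (−0.72) and VLDLR (−0.60) fell. With H2O2 9 were higher and none lower, against 6.78% and 5.3% of all genes, with a median of 0.34. ATF4 itself rose by 0.40 with arsenite and by 0.46 with H2O2, from a mean of 536 CPM untreated to 709 and 741 CPM. These values include the 2 outlying WT libraries, at 928 CPM with arsenite and 1182 CPM with H2O2. In vector and SxxS cells alone ATF4 was not called with H2O2. The members' medians of 0.41 and 0.09 were thus lower than those of the other ATF4 targets in both treatments, a difference that was not tested.

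Counts of some members may hold reads of other genes, since the use of strand in counting is not given in the sources used here. PYCR1 shares 14.1% of its exonic bases with MYADML2 on the same strand and 15.6% with the antisense ENSG00000263585. MTHFD2 shares 14.1% with genes on the opposite strand (SLC4A5 and a second locus), SHMT2 8.38%, ALDH1L2 2.91% and SHMT1 2.81%, with a further 1.04% on its own strand. PHGDH, PSAT1, PSPH, MTHFD1L and ALDH18A1 share no exonic base with another gene. The processed pseudogene MTHFD2P7 held counts worth 0.702% of those of MTHFD2, and the other pseudogenes of the members held 0.00862% or less of their parent's.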

How the data were processed

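The authors deposited raw read counts per gene for all 36 libraries, made from 100-bp paired-end reads (DNBSEQ) aligned to GRCh38 with qAlign of QuasR, together with a gene width, which equals the merged exon length of GENCODE 44 for the members and served as length. The annotation release, the use of strand and the counting of mates are not given in the sources used here. Genes with at least 10 counts over the 3 untreated vector libraries were kept, as in the study (22486 of 61587). One quasi-likelihood model over the 12 groups was fitted with edgeR 4.0.16 (R 4.3.3, limma 3.58.1; TMM factors), which gave within-line, averaged and interaction contrasts, with Benjamini-Hochberg adjustment over all tested genes and a threshold of 0.05. DESeq2 1.42.0, other filters and scalings, a replicate block and left-out libraries were alternatives. The pipeline was tested on simulated data. CPM are counts scaled to TMM-adjusted library totals. Totals ran from 42072410 to 174119002 counts, and intervals cover the spread between libraries.

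The members and lists were chosen with earlier results of these data known. The named genes are the 10 members, TXNL1, ATF4, genes of 4 lists given by counts and median, and for each member up to 3 genes nearest by correlation over the 12 groups. Ratios and the sequences to show were chosen after values were seen. Same-numbered replicates were not shown to be pairs over the series, since 5 of 24 correlations of their deviations exceeded 0.1 (range −0.327 to 0.368), but in D162R R234D cells with H2O2 all 3 did (0.306, 0.127 and 0.315), a comparison with 0 members called with or without the block. The authors' own comparisons were not used. Some genes of the lists are not reported by name here.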

Additional observations from a re-analysis of the deposited data

How the results depend on the processing

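No member called with all libraries in the design as fixed changed sign under any of the settings tried. The averaged arsenite calls of PHGDH, PSAT1, PSPH, SHMT2, MTHFD2, MTHFD1L, ALDH18A1 and PYCR1 were made in all 33 alternative fits, while 8 to 10 of the 10 members were called in each. Averaged H2O2 gave 5 members, 3 with no filter and 8 without the 2 outlying libraries, and 3 to 6 with single libraries left out, while genes called in all went from 2716 to 1832 and 6430. When only the groups compared were fitted, the count went to 4 with arsenite in WT (from 10), with H2O2 to 5 in vector (from 0), 0 in WT (from 3) and 4 in SxxS (from 2), and against vector to 5 untreated (from 0) and 0 with arsenite (from 1). Without the 2 outlying libraries it went to 4, 5 and 4 with H2O2 in vector, D162R R234D and SxxS, and to 3 untreated and 3 with arsenite against vector. The DESeq2 test gave 2, 5 and 2 with H2O2 in vector, WT and D162R R234D, 2 with arsenite against vector and 1 with H2O2 against vector. DESeq2 size factors gave 1 with H2O2 in vector, total counts gave 0 and no filter 0 in SxxS, and no filter 0 with arsenite against vector. Leaving out single libraries gave 1 to 4 with H2O2 in WT, 0 to 1 in SxxS, 0 to 3 with arsenite against vector and 0 to 1 with H2O2 against vector. Among these counts, the genes called in all are given only for arsenite in WT, which went from 12060 to 6416 with only the groups compared. The other member counts thus cannot be set against a change over all genes, and the cause was not tested. With the replicate number as a block, 9 members were called with arsenite averaged (ALDH1L2 was lost), 5 with H2O2 averaged and 10 between the treatments, with 8, 10, 8 and 8 in the 4 lines with arsenite and 0, 3, 0 and 2 with H2O2, where in WT PHGDH was lost and ALDH18A1 gained. Without a filter the median of all genes with arsenite was 0.17, against 0.06. Each group holds 3 libraries, with a biological coefficient of variation of 12.4% over all genes, and each member had at least 1015 counts in every library.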

Other observations

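The 2 outlying WT libraries held 9 of the 10 members at the same extremes, all but PSPH. Replicate 1 of WT with arsenite had the highest PHGDH (820.3 CPM), SHMT1 (98.5 CPM), SHMT2 (441 CPM), MTHFD1L (242 CPM) and PYCR1 (172 CPM) of the 12 arsenite libraries, and the lowest PSAT1 (295 CPM), PSPH (47.6 CPM), MTHFD2 (314 CPM), ALDH1L2 (9.32 CPM) and ALDH18A1 (248 CPM). Replicate 2 of WT with H2O2 had the highest PHGDH (717 CPM), SHMT1 (89.7 CPM), SHMT2 (313 CPM), MTHFD1L (179 CPM) and PYCR1 (171 CPM) of the 12 H2O2 libraries, and the lowest PSAT1 (276 CPM), MTHFD2 (328 CPM), ALDH1L2 (13.7 CPM) and ALDH18A1 (254 CPM). The counts of PSAT1 were 0.360 and 0.385 times those of PHGDH in these 2 libraries, against 0.528 or more in every untreated library. ATF4, the transcription factor, was at 928 and 1182 CPM in them, against a mean of 709 CPM with arsenite and 741 CPM with H2O2 that includes them.

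TXNL1 itself was higher after arsenite in every line, from 31.7, 31.6 and 28.6 CPM to 71.9, 67.9 and 68.2 CPM in vector cells, with an averaged log2 fold change of 0.93 against 0.15 with H2O2.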
